A study of Mus musculus with 4 samples.

Results

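Interferon-stimulated genes are the genes that cells switch on after type I interferon, and poly(I:C), a synthetic double-stranded RNA, raises them by inducing interferon. Here 45 such genes were chosen by name, as double-stranded RNA sensors, antiviral effectors, transcription factors, and receptors with feedback inhibitors, and every non-control probe that carried one of these gene names on the arrays was taken. All 45 genes had a probe, 70 probes in all, out of 28095 gene names and 41174 probes on the array. Each gene was read at its brightest probe, the probe with the highest mean level over the arrays.

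LSK cells lack lineage markers, carry Sca-1 and c-Kit, and are the fraction of bone marrow with hematopoietic stem cells and early progenitors. The comparison asked how these cells differed with and without Meis1, a homeodomain transcription factor of hematopoietic stem cells. Meis1-KO LSK cells came from *Mx1-Cre*-positive *Meis1*fl/fl mice and Meis1-WT LSK cells from *Mx1-Cre*-negative *Meis1*fl/fl mice, all on C57BL/6J, so both genotypes carried the floxed alleles and Cre was present in only one of them. Mice were 4 to 8 weeks old, and poly(I:C) was given intraperitoneally at 1.5 µg per g of body weight, 4 times at a 1-day interval. LSK cells were collected 1 week after poly(I:C). Each genotype was measured in 2 pools of 6 mice, with 1 array for each pool. The *Mx1* promoter that drives Cre is itself an interferon-responsive promoter of the family studied here. The sources describe the controls in different ways, as sham-treated in the microarray methods and the design text, and as injected with poly(I:C) in the mouse methods and the sample labels. No array of untreated mice was analysed here, so the rise that poly(I:C) itself causes was not measured, and if the controls were sham-treated the treatment and the genotype cannot be told apart.

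Interferon reaches the nucleus through the receptor IFNAR, whose kinases activate STAT2 and its partners. A complex with IRF9 then sits on the interferon-stimulated response element (ISRE) of its target genes. Another element, GAS, lies at genes that respond to interferon-gamma. Many products of the target genes, such as RIG-I, MDA5, the OAS enzymes and PKR, bind viral double-stranded RNA, and others, such as USP18 and SOCS1, dampen the pathway again. In hematopoietic stem cells, interferon is known for driving cells out of quiescence for a short time, and Sca-1 (*Ly6a*), on which the LSK gate rests, is itself induced by interferon.

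The ISRE can be read in the sequence before the start sites of these genes, which the choice of members did not use. The core TTTCNNTTTC was searched on both strands in the 250 bases upstream of each RefSeq start on GRCm38.p6. Sequences were held for 36 of the 45 members, and 15 of these (41.7%) had at least 1 core, as did 3.46% of all 27025 genes with a sequence. The members with the core were *Bst2*, *Cxcl10*, *Gbp2*, *Gbp3*, *Ifit1*, *Ifit3*, *Igtp*, *Irgm1*, *Isg15*, *Oas1a*, *Oas3*, *Rsad2*, *Socs1*, *Stat2* and *Trim30*. The GAS letters TTCNNNGAA were found upstream of 9 of the 36 (25.0%) and of 8.13% of all genes, with *Irf1* and *Irf8* among the 9. A match is a description of these letters only, and a gene without one may hold the element elsewhere. The 6 stretches below are those of members whose levels are given on every array further on, read 5′ to 3′ on the strand of the gene, with capitals for the cores (GAAANNGAAA where a core lies on the opposite strand). Cores that overlap or touch are run together.
*Cxcl10*, chr5:92349073-92349122, minus strand: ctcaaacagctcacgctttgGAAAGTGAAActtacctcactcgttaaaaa
*Ifit3*, chr19:34583353-34583436, plus strand: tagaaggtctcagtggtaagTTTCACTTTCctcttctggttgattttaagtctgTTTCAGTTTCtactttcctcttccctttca
*Isg15*, chr4:156200855-156200916, minus strand: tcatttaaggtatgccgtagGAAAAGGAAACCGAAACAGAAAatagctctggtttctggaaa
*Oas1a*, chr5:120907526-120907565, minus strand: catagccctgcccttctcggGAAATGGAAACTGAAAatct
*Irgm1*, chr11:48871421-48871470, minus strand: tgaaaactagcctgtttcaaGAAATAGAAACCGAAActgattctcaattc
*Socs1*, chr16:10785584-10785639, minus strand: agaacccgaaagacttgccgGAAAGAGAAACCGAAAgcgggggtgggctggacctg

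The core of *Cxcl10* began 213 bases before the start, farther out than those of *Ifit3* at 156 and 122 bases. In *Isg15* 3 overlapping cores began between 78 and 66 bases before the start, and in *Oas1a* and *Irgm1* the cores lay within the last 30 bases.

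**Figure D1:**
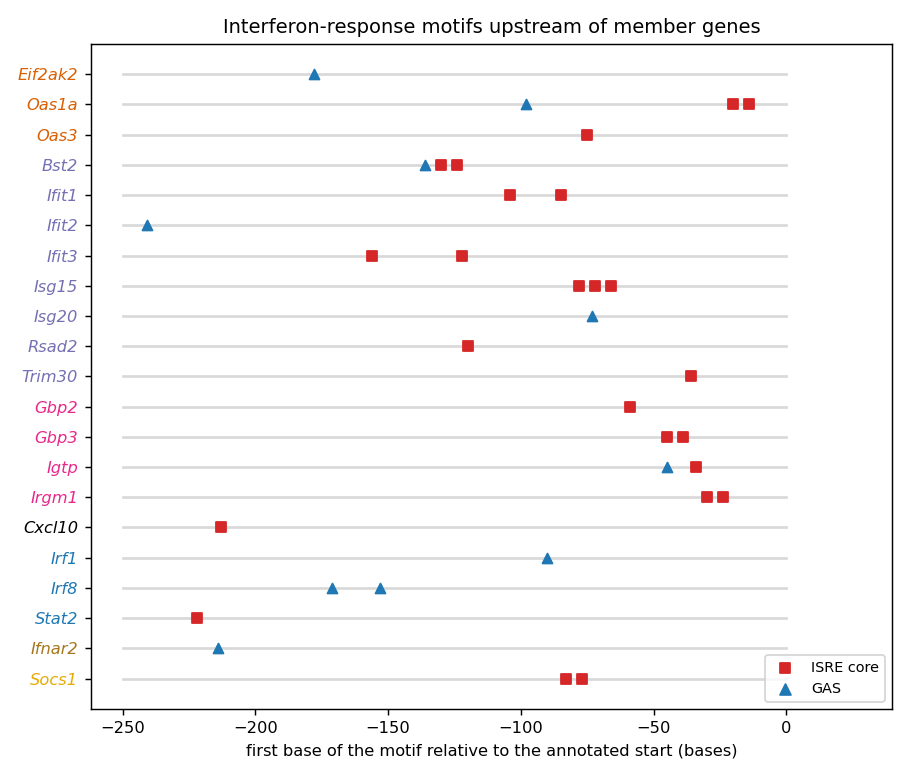
Position of the first base of each ISRE core (red squares) and GAS match (blue triangles) relative to the annotated start, in bases, for the member genes that had a match in the 250 bases upstream. Gene names are colored by role, and the cores of *Oas1a* and *Irgm1* lie nearest to the start.

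Levels are given as the log2 of the array's background-subtracted intensity minus that array's 75th percentile, so a level of 0 is as bright as the 75th percentile and a difference of 1 is 2-fold. Levels of different genes come from different probes, so they are not comparable with each other, and a summed level over a marker list serves only to set the arrays side by side. To be tested, a probe had to be well above background in both pools of one genotype or the other, a condition met by 22007 probes and by the brightest probe of 41 of the 45 members. These were 4 of 5 sensors, 29 of 31 effectors, 4 of 5 transcription factors and all 4 receptors and feedback inhibitors. Of the 41, 35 were well above background on all 4 arrays. The 2 *Meis1* probes differed by -1.70 and -0.998 on the log2 scale, with both Meis1-KO arrays below both Meis1-WT arrays in each case. The first of these values uses a dim one, since that probe was not well above background in the second Meis1-KO pool. Whether either lies in the deleted exon 8 was not analysed here. All 8 listed genes of LSK and stem cells, with *Kit*, *Ly6a*, *Cd34* and *Procr* among them, were well above background on every array. Of these 8, *Hlf* was lower in Meis1-KO by the thresholds given below, with a difference of -2.42. *Cd48* differed by 0.85 and did not meet them.

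The arrays were not alike. The second Meis1-KO pool gave the dimmest array, with 49.2% of spots well above background against 54.7% to 57.4% on the others. Both pools numbered 1 lay on one slide and both pools numbered 2 on another, so each slide held 1 array of each genotype. Among the 35 members measured on all 4 arrays, the median absolute log2 difference was 0.26 between the genotypes on slide 1 and 0.66 on slide 2. The 2 Meis1-WT pools differed by a median of 0.35 and the 2 Meis1-KO pools by 0.87. All genes measured on 4 arrays showed the same order, with medians of 0.19, 0.58, 0.35 and 0.66. In these terms the first Meis1-KO pool was nearer to its slide partner than the Meis1-WT pools were to each other, and the second Meis1-KO pool stood apart, for the members as for all genes.

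No member differed between the genotypes by the thresholds of the study, a p under 0.01 before adjustment together with a change of over 2-fold, applied here to limma. Over all 22007 tested probes 0.600% met them as lower and 0.136% as higher in Meis1-KO. None of the 60 tested member probes met them either, nor did any member in the methods' t-test. The smallest adjusted p (Benjamini-Hochberg over all tested probes) was 0.983 among the members and 0.470 among all probes. An unadjusted p under 0.05 was found for 1 member (*Zbp1*) in limma, for 3 (*Zbp1*, *Cxcl10* and *Ifit3*) in the blocked limma fit and for 0 in the methods' t-test, beside 2.81%, 5.92% and 2.42% of all tested probes. *Cxcl10* and *Ifit3* were not well above background in the second Meis1-KO pool. In bulk RNA fewer cells of a type and less RNA per cell cannot be told apart, here and below. Of the 41 members 16 were higher and 25 lower in Meis1-KO, with a median difference of -0.16, against a median of 0.13 over all 14726 tested genes at 1 probe each. The median of the members was 0.11 on slide 1 and -0.53 on slide 2, against 0.02 and 0.21 over all genes. Of the 25 lower members 6 (*Cxcl10*, *Ifit1*, *Ifit3*, *Irf7*, *Oas2* and *Oasl1*) were not well above background in the second Meis1-KO pool and had passed the filter through Meis1-WT. The 35 members measured on all 4 arrays split into 16 higher and 19 lower, with a median of -0.05 and of -0.11 on slide 2, against 0.16 and 0.28 over the 12932 genes measured on all 4. The median of the members turned to 0.12 when the background was corrected with normexp instead, where the median over all tested probes was 0.13. The split of 16 higher and 25 lower became 19 and 22 with median scaling, 17 and 24 with quantile normalization, 23 and 18 with normexp, and 7 and 34 with no scaling between arrays, where *Bst2*, *Dhx58*, *Ifi35*, *Ifi44*, *Ifnar2*, *Isg15*, *Oas1a*, *Trim30* and *Xaf1* turned lower.

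The width of the intervals limits what these values exclude. The half-width of the 95% interval of a member's difference ranged from 1.04 to 2.81 with a median of 1.31, and 40 of the 41 intervals held 0. None of them lay wholly within 2-fold in both directions, so a 2-fold difference in at least one direction was compatible with the arrays for every member. Both Meis1-KO arrays were below both Meis1-WT arrays for 4 members (10.8% of all tested probes) and above them for 4 (16.0%). The 4 lower ones were *Isg20*, *Oasl2*, *Ifnar1* and *Zbp1*, and the 4 higher ones *Trim30*, *Irgm1*, *Ifnar2* and *Irf8*.

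**Figure D2:**
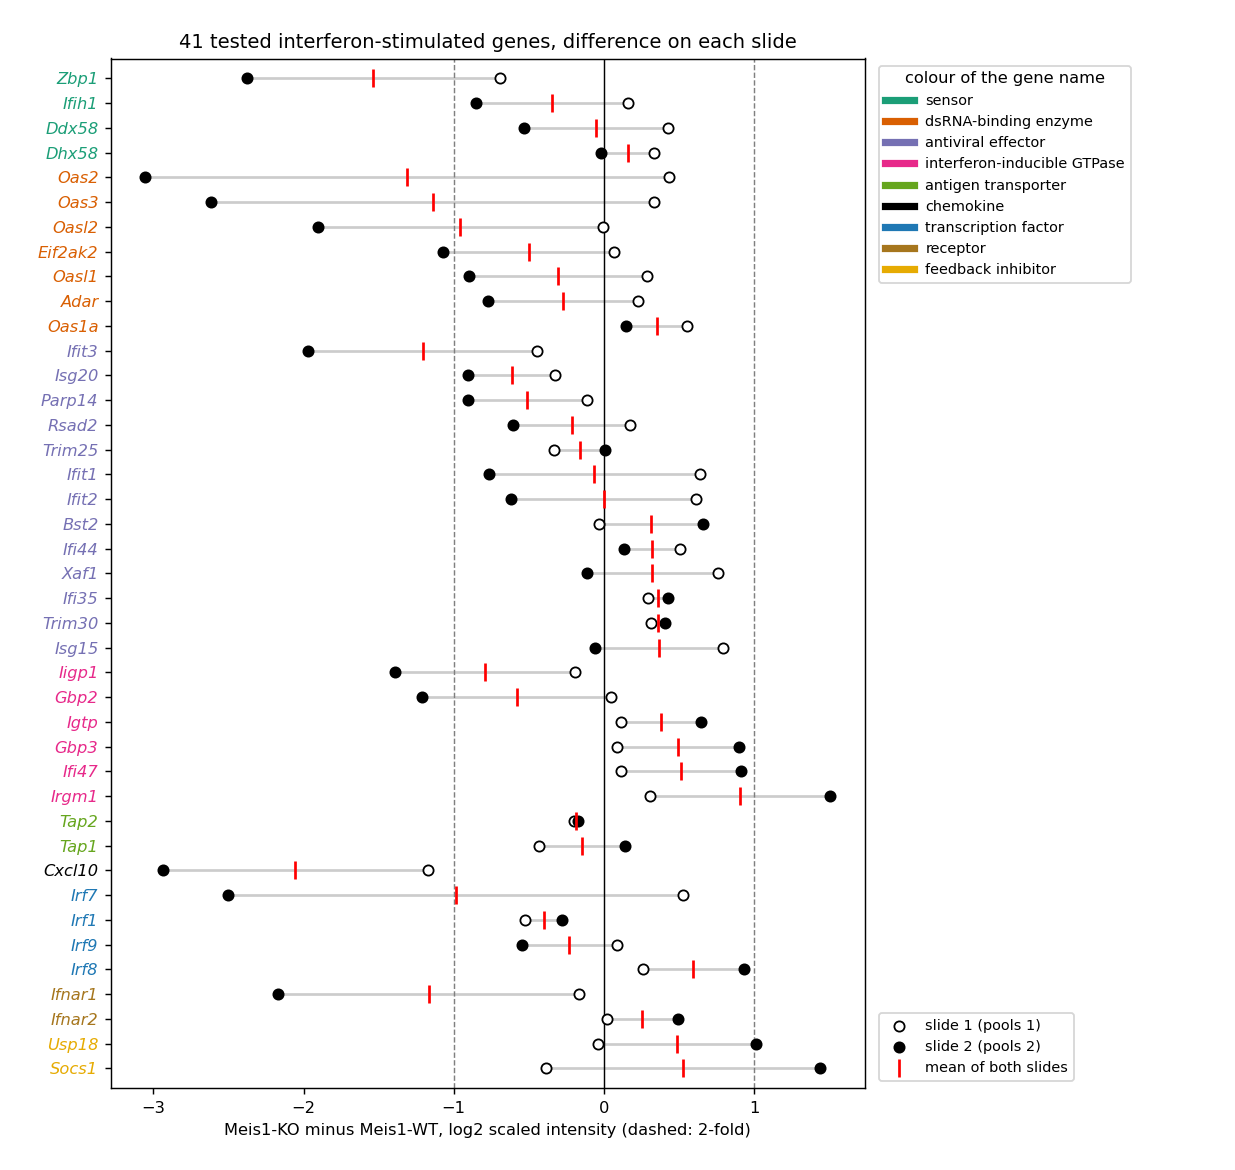
Meis1-KO minus Meis1-WT difference in log2 scaled intensity for the 41 tested members on slide 1 (open circles), on slide 2 (filled circles) and as the mean of both (red bars), with genes grouped and colored by role and dashed lines at 2-fold. On slide 1 only *Cxcl10* lies beyond 2-fold, while on slide 2 11 members are lower and 3 higher by more than that.

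On slide 1 a single member, *Cxcl10*, differed by more than 2-fold. It was lower, as were 3.98% of all tested genes on that slide by that measure, and 3.12% of genes but no member were higher. On slide 2, 11 members (26.8%) were lower by more than 2-fold, against 13.9% of all genes, and 3 (7.32%) were higher, against 15.0%. The 11 were *Cxcl10*, *Eif2ak2*, *Gbp2*, *Ifit3*, *Ifnar1*, *Iigp1*, *Irf7*, *Oas2*, *Oas3*, *Oasl2* and *Zbp1*, and the 3 were *Irgm1*, *Socs1* and *Usp18*. For *Cxcl10*, *Ifit3*, *Irf7* and *Oas2* the Meis1-KO value on that slide was not well above background. Among the 35 members measured on all 4 arrays 7 (20%) were lower by that measure, against 8.69% of such genes, and 3 (8.57%) higher, against 15.0%. Each slide holds 1 array of each genotype, so these are comparisons of single pools with no replicate. The direction was the same on both slides for 20 of the 41 members, 10 higher and 10 lower, and opposite for 21. Over all tested genes 32.1% were higher on both slides, 19.3% lower on both and 48.6% opposite, beside 24.4%, 24.4% and 51.2% of the members.

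**Figure D3:**
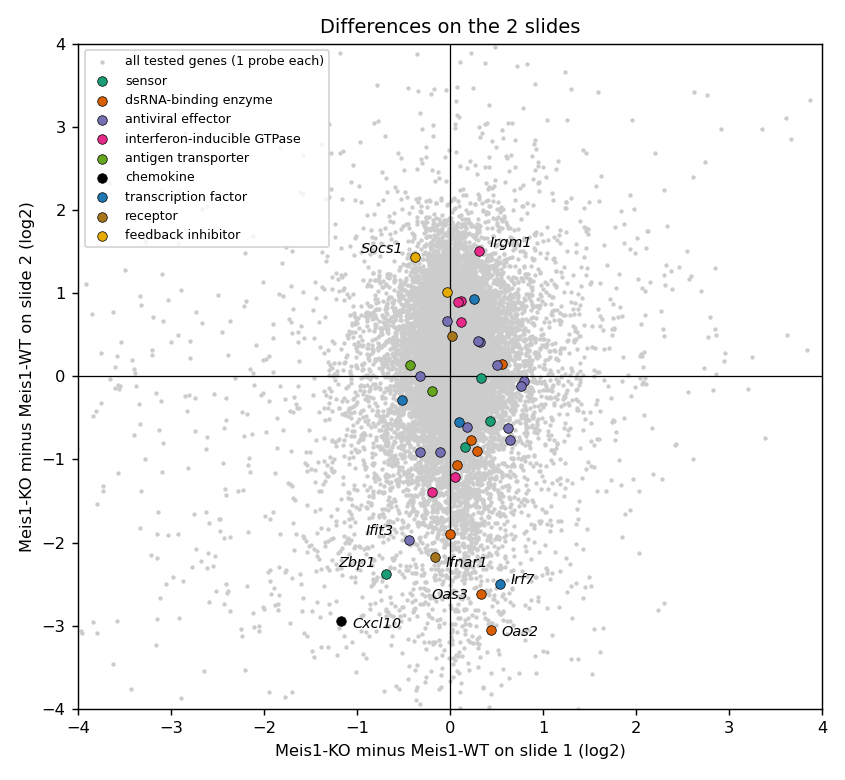
Meis1-KO minus Meis1-WT log2 difference on slide 1 (x axis) against slide 2 (y axis) for the 41 tested members, colored by role, over all 14726 tested genes in gray, 101 of which lie outside the axes. The members spread more along the axis of slide 2 than along that of slide 1, as the gray points do, and *Cxcl10* is the member farthest to the lower left.

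The cytosolic and endosomal sensors recognize double-stranded RNA or nucleic acids in the Z form. At their brightest probes *Ifih1* (MDA5), *Ddx58* (RIG-I) and *Dhx58* (LGP2, a regulator of both) were measured on all arrays and differed by -0.35, -0.05 and 0.16 on the log2 scale, each in opposite directions on the 2 slides. The other tested probes of *Ddx58* gave -0.24, -0.60 and -0.84, and that of *Ifih1* gave -0.55. The probes at -0.84 and -0.55 were not well above background in the second Meis1-KO pool, and the one at -0.84 was lower on both slides. *Zbp1*, the Z-nucleic acid sensor that can start necroptosis, read -1.45 and -2.81 in the Meis1-KO pools 1 and 2 and -0.76 and -0.43 in the Meis1-WT pools 1 and 2. Both Meis1-KO pools lay below both Meis1-WT pools, the second farther than the first.

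The *Zbp1* difference was -1.54, or 2.90-fold, with a 95% interval from -2.94 to -0.14 and a limma adjusted p of 0.983. It was -0.69 on slide 1 and -2.38 on slide 2. With normexp background correction it was -0.48, and without the second Meis1-KO pool -0.86. *Dhx58*, at the other end of the sensors, read -1.28 and -1.29 in Meis1-KO and -1.61 and -1.28 in Meis1-WT, so the genotypes overlapped. Neither probe of *Tlr3*, the endosomal receptor for double-stranded RNA, was well above background on any array.

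**Figure D4:**
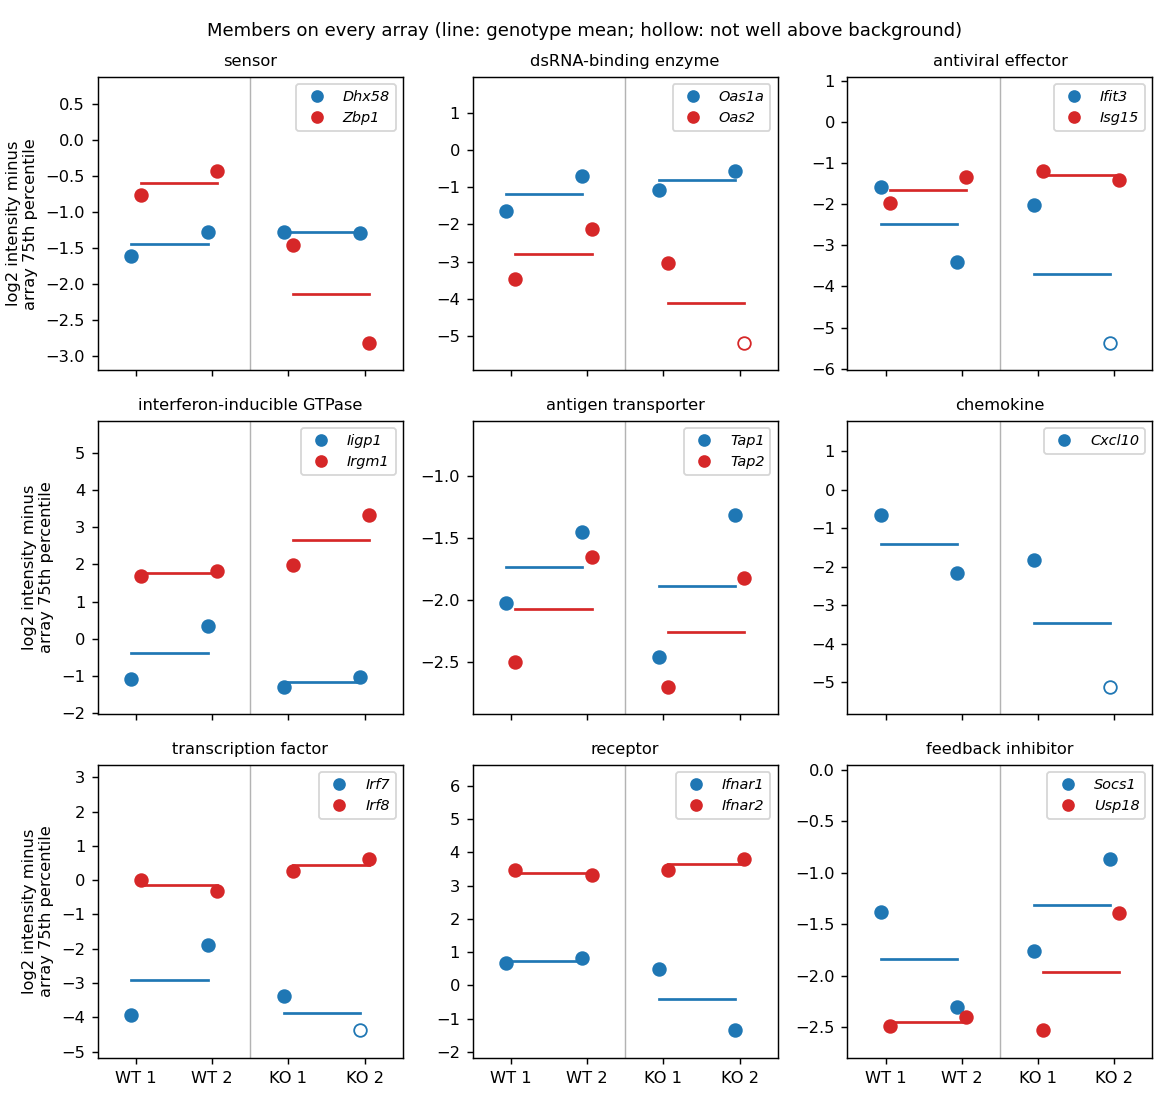
Level on each of the 4 arrays (log2 intensity minus the array's 75th percentile) of the members with the lowest and highest difference of each role, in panels with scales of their own. Lines are genotype means and hollow points are not well above background; for *Cxcl10*, *Ifit3*, *Oas2* and *Irf7* the second Meis1-KO pool is the hollow point.

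The double-stranded RNA-binding enzymes include the OAS family, which makes the 2-5A messenger that activates RNase L, with the related *Oasl1* and *Oasl2*, and also PKR (*Eif2ak2*), which halts translation, and the RNA editor *Adar*. Of these 7 genes 6 were lower in Meis1-KO on average, yet 5 of the 7 went in opposite directions on the 2 slides. *Oas2* and *Oasl1* were not well above background in the second Meis1-KO pool, and both turned higher with normexp. Without that pool *Oas3*, *Eif2ak2*, *Oasl1* and *Adar* turned higher. The group's median difference was 0.29 on slide 1 and -1.07 on slide 2, against 0.02 and 0.21 over all tested genes.

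*Oas2* was the lowest of the group, with -3.03 and -5.18 in the Meis1-KO pools and -3.46 and -2.13 in the Meis1-WT pools. Its difference was -1.31, with an interval from -3.33 to 0.72 and a limma adjusted p of 0.983. The low value was that of the second Meis1-KO pool, which was not well above background there, and with normexp the difference was 0.13. *Oas1a*, the highest, read -1.07 and -0.56 in Meis1-KO and -1.63 and -0.71 in Meis1-WT, a difference of 0.35 with overlapping genotypes. *Oas3* had 2 tested probes that disagreed, the brightest with a difference of -1.14 and the other with 0.51. At the brightest probe the second Meis1-KO pool read -0.09 against 2.07 to 2.53 on the other arrays, and at the other probe it read -1.58, the highest of the 4 arrays. *Oasl2*, *Eif2ak2*, *Oasl1* and *Adar* differed by -0.96, -0.50, -0.31 and -0.27.

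The antiviral effectors act on viral RNA, budding or protein stability. They hold the IFIT proteins (*Ifit1*, *Ifit2*, *Ifit3*), which bind viral RNA or block translation, the ubiquitin-like *Isg15*, the exonuclease *Isg20*, viperin (*Rsad2*), which produces a chain-terminating nucleotide, and tetherin (*Bst2*), which holds virions at the cell surface. *Ifi35*, *Ifi44*, the apoptosis-linked *Xaf1*, the ADP-ribosyltransferase *Parp14*, and *Trim25* and *Trim30*, of which the former ubiquitinates RIG-I, complete the 13. All 13 were tested, 6 were higher (all 6 lower with no scaling) and 7 lower in Meis1-KO, and the median difference was -0.0008, or 0.30 on slide 1 and -0.11 on slide 2.

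*Ifit3* read -2.03 and -5.37 in Meis1-KO and -1.59 and -3.40 in Meis1-WT. It was lower in both pools numbered 2 than in those numbered 1, and within each slide lower in Meis1-KO, with differences of -0.44 and -1.97, although the second Meis1-KO pool was not well above background. The fitted difference of -1.21, which uses that dim value, had an interval from -4.02 to 1.61, and with normexp it was 0.13. At the other end *Isg15*, whose promoter held 3 ISRE cores, read -1.19 and -1.41 in Meis1-KO and -1.98 and -1.35 in Meis1-WT, a difference of 0.37 with an interval from -0.75 to 1.48. The genotypes overlapped for both genes. The other 11 members of this group lay between -0.61 (*Isg20*) and 0.36 (*Trim30*).

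Among the interferon-inducible GTPases, which attack vacuoles of intracellular pathogens, the IRG family members *Irgm1*, *Igtp* and *Ifi47* and the guanylate-binding protein *Gbp3* were each higher in Meis1-KO on both slides, by 0.91, 0.38, 0.51 and 0.49 on average. These averages rested on slide 2, since on slide 1 the differences were 0.31, 0.11, 0.11 and 0.09, and without the second Meis1-KO pool they were 0.23, -0.07, -0.24 and -0.10. *Gbp2* and *Iigp1* differed by -0.58 and -0.79. The smallest limma adjusted p among the 6 was 0.952, with the slide as a block. *Irgm1*, the highest, read 1.99 and 3.34 in Meis1-KO and 1.68 and 1.84 in Meis1-WT, and both Meis1-KO pools were above both Meis1-WT pools. Its interval ran from -0.48 to 2.29, and a second tested probe gave 0.52. *Iigp1* read -1.29 and -1.04 in Meis1-KO and -1.10 and 0.35 in Meis1-WT, where the second Meis1-WT pool was high and the other 3 were close together.

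The dynamin-like GTPases *Mx1* and *Mx2* block viruses early after entry, and *Mx1* is known to be disrupted in C57BL/6 mice. *Mx1*, whose promoter drives Cre in these mice, exceeded the background limit at its brightest probe in both pools of slide 2, at -2.78 in each genotype. It did so in neither pool of slide 1, where it read -4.84 in Meis1-KO and -5.04 in Meis1-WT. At this probe the pattern followed the slide and not the genotype. The other *Mx1* probe was not well above background on any array. *Mx2* was not well above background on any array, and neither gene was tested.

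*Tap1* and *Tap2* encode the transporter that loads peptides for MHC class I. *Tap1* read -2.45 and -1.31 in Meis1-KO and -2.02 and -1.45 in Meis1-WT, and *Tap2* read -2.70 and -1.83 in Meis1-KO and -2.50 and -1.65 in Meis1-WT. Both were higher in the pools numbered 2 of both genotypes, and the genotypes overlapped. The differences of -0.15 and -0.19 had intervals from -1.49 to 1.20 and from -1.50 to 1.13.

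*Cxcl10* encodes a chemokine that draws activated T cells and NK cells and is a common readout of interferon. Its 60-base probe lies at chr5:92775781-92775840 on mm9. It read -1.82 and -5.12 in the Meis1-KO pools 1 and 2 and -0.65 and -2.18 in the Meis1-WT pools 1 and 2. The pools numbered 2 were lower than those numbered 1 in both genotypes, and within each slide the Meis1-KO pool was the lower one, although the genotypes overlapped across slides. The second Meis1-KO pool was not well above background.

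Since 1 of the 2 Meis1-KO arrays did not measure *Cxcl10* above background, no fold is given. The fitted difference was -2.06, with an interval from -4.76 to 0.65 and a limma adjusted p of 0.983. It was -1.17 on slide 1 and -2.94 on slide 2, the latter against the dim value, and *Cxcl10* was the member that differed by more than 2-fold in one direction on both. With the slide as a block in limma, a fit that also uses the dim value, it was the 1 member to meet the criteria, at an unadjusted p of 0.0042 and an adjusted p of 0.369. In that fit 1.35% of all tested probes met the criteria as lower and 0.568% as higher. The difference was -0.41 without the second Meis1-KO pool, -3.70 without the first, and -0.21 with normexp.

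The transcription factors carry the signal onward. *Irf9* is the DNA-binding partner of STAT2, *Irf7* amplifies interferon-alpha production, *Irf1* is an early target with a GAS match in its promoter, and *Irf8* is also a lineage factor of monocytes and dendritic cells. Of the 4 that were tested 3 were lower and 1 higher in Meis1-KO. *Stat2* was well above background on 1 array, that of the first Meis1-WT pool, and was not tested.

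*Irf7* read -3.39 and -4.38 in Meis1-KO and -3.92 and -1.88 in Meis1-WT. The second Meis1-KO pool was not well above background. The difference of -0.99 was the mean of 0.53 on slide 1 and -2.50 on slide 2, and with normexp the difference was 0.10. *Irf8* read 0.25 and 0.63 in Meis1-KO and -0.0047 and -0.30 in Meis1-WT, so that both Meis1-KO pools were above both Meis1-WT pools. Its difference was 0.60 with an interval from -0.47 to 1.66, and its second probe gave 0.62. *Irf1* and *Irf9* differed by -0.40 and -0.23 at their brightest probes and by 0.42 and 0.15 at their second probes.

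Both chains of the interferon receptor were well above background on all arrays. *Ifnar1* read 0.50 and -1.36 in Meis1-KO and 0.67 and 0.81 in Meis1-WT, and the second Meis1-KO pool was the low one. The difference was -1.17 with an interval from -2.81 to 0.47, and it was -0.24 without that pool. *Ifnar2* read 3.48 and 3.82 in Meis1-KO and 3.46 and 3.32 in Meis1-WT, a difference of 0.26, with the genotypes apart by little.

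The feedback inhibitors were both higher in the second Meis1-KO pool than on any other array. *Usp18*, which strips ISG15 from proteins and shields IFNAR2 from its kinase, read -2.53 and -1.39 in Meis1-KO and -2.49 and -2.40 in Meis1-WT. *Socs1*, which blocks Janus kinases, read -1.76 and -0.86 in Meis1-KO and -1.38 and -2.30 in Meis1-WT. The differences were 0.49 and 0.53, with intervals from -0.80 to 1.77 and from -0.82 to 1.88, and the direction on slide 1 was the opposite for both.

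The values of the members depended on which Meis1-KO pool was kept. Without the first Meis1-KO pool *Irgm1* met the criteria as higher, with a difference of 1.59. Those that met them as lower were *Cxcl10* (-3.70), *Ifit3* (-2.87), *Ifnar1* (-2.10), *Oas2* (-2.39), *Oas3* (-2.39), *Oasl2* (-1.73) and *Zbp1* (-2.21). Of these, *Cxcl10*, *Ifit3* and *Oas2* were not well above background in the second Meis1-KO pool and had passed the filter through Meis1-WT. In that fit, in which the lone second Meis1-KO array is assumed to vary like the Meis1-WT arrays, 7.89% of all tested probes met them as lower and 2.34% as higher. Without the second Meis1-KO pool 19 of the 41 differences changed sign. The share of all tested genes that changed sign in that fit was not analysed here. The 2 Meis1-KO pools differed by more than 2-fold for 37.1% of the members measured on every array and for 30.2% of all such genes. Between the 2 Meis1-WT pools these shares were 5.71% and 9.70%. The second Meis1-KO array was also the one on which members dropped out of detection, since 36 of the 45 were well above background there and 41 or 42 on the others. Of the tested members 6 (14.6%) were below that limit on this array alone, namely *Ifit1*, *Ifit3*, *Oas2*, *Oasl1*, *Irf7* and *Cxcl10*, as were 7.84% of all tested genes. The part of array brightness in these values was not tested.

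Where a gene had more than 1 tested probe, the probes differed by up to 1.65 on the log2 scale. This was measured in 15 members. In 9 of them all probes pointed the same way, among them *Isg20* (-0.61 and -1.25), *Irgm1* (0.91 and 0.52), *Ifih1*, *Parp14*, *Trim30*, *Irf8* and the 4 probes of *Ddx58*. In the other 6, *Ifit2*, *Irf1*, *Irf9*, *Oas3*, *Rsad2* and *Trim25*, the sign depended on the probe.

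**Figure D5:**
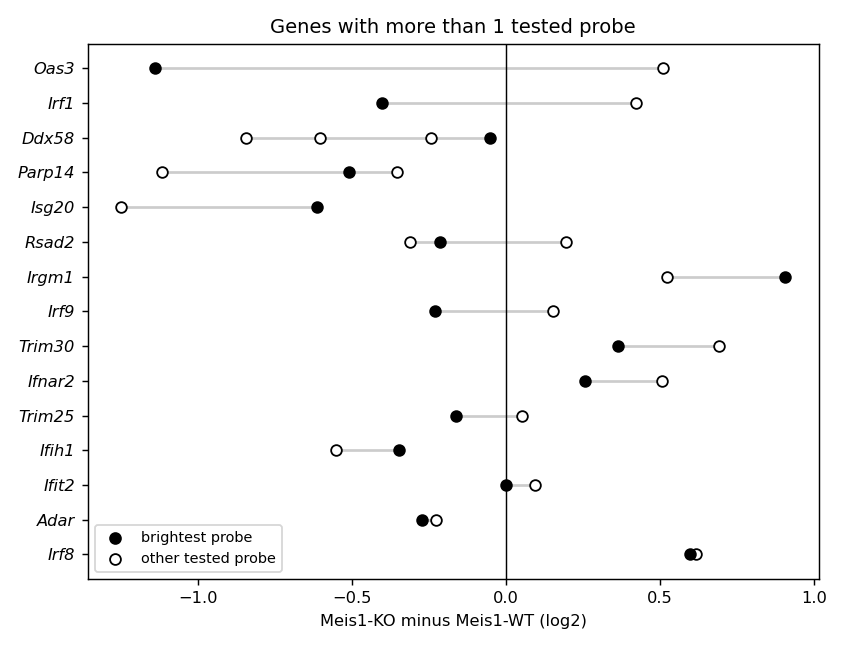
Meis1-KO minus Meis1-WT log2 difference at each tested probe of the 15 members with more than 1, with filled points for the brightest probe and open points for the others. The probes of *Oas3* lie farthest apart, at -1.14 and 0.51.

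The wider interferon pathway also held no call. Of 114 further genes on the array (ligands, receptors with their kinases, STAT and IRF factors, adaptors of the sensors, feedback genes and other interferon-stimulated genes) 101 were tested. None met the criteria in either direction, 59 were higher and 42 lower in Meis1-KO, beside 8825 and 5901 of all 14726 tested genes, and the median difference was 0.10, beside -0.16 for the members and 0.13 over all tested genes. On slide 2 it was 0.12. *Ly6a*, the gene of the Sca-1 gate, differed by 0.03, with an interval from -1.09 to 1.15. It was -0.45 on slide 1 and 0.51 on slide 2.

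With the slide as a block 1 of the 101, *Irf4*, met the criteria. *Irf4*, a factor of activated B cells and plasma cells, read -3.91 and -3.87 in Meis1-KO and -0.34 and -2.70 in Meis1-WT, a difference of -2.37 with a limma adjusted p of 0.338 in that fit and 0.983 without the block. The second Meis1-KO array was not well above background. Among the markers of plasma cells, which *Irf4* belongs to as well, *Igj*, *Sdc1* and *Tnfrsf17* were lowest in the first Meis1-KO pool, and the summed level of the 7 listed genes was 5.14 there, 26.5 in the second Meis1-KO pool, and 27.9 and 13.8 in the Meis1-WT pools. *Igj* read 1.41 and 4.37 in Meis1-KO and 4.30 and 3.33 in Meis1-WT. *Sdc1* read -2.06 and -0.22 in Meis1-KO and 1.05 and 0.07 in Meis1-WT, so that both Meis1-KO pools were below both Meis1-WT pools, as for *Irf4*. The part of such cells in the *Irf4* value was not tested.

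Markers of mature cells were present on all arrays, and most of those of granulocytes moved with the slide. The granulocyte genes *S100a8*, *S100a9*, *Ltf*, *Camp* and *Ngp* were higher on slide 1 than on slide 2 in both genotypes, while *Prtn3* and *Elane* were higher on slide 2, by 0.54 and 0.25 in Meis1-KO and by 0.69 and 0.03 in Meis1-WT. *Mpo*, which progenitors express as well, read 6.90 and 6.38 in Meis1-KO and 6.58 and 5.58 in Meis1-WT. The summed level of the 9 listed genes, *Mpo* included, was 157 and 173 on slide 1 against 88.4 and 52.0 on slide 2. For 10 monocyte and macrophage genes it was between 5.77 and 11.5 on the 4 arrays, but the listed genes went different ways. *Itgam* was lower on slide 2 in both genotypes, at 2.60 and 0.90 in Meis1-KO and 2.16 and 0.79 in Meis1-WT, as were *Csf1r* and *Cd68*, while *Ly6c1* read -1.41 and 2.91 in Meis1-KO and 1.88 and 1.30 in Meis1-WT. *Cx3cr1* and *Mrc1* were not well above background on any array. The sum of 8 dendritic genes was between 4.65 and 9.77, with *Siglech* and *Cd209a* not well above background on any. *Flt3*, a gene of progenitors as well as of dendritic cells, met the criteria as lower in Meis1-KO, where the second pool was not well above background, as did *Elane* of the granulocyte list. The summed level of 8 erythroid genes was 102 and 249 in the Meis1-KO pools and 89.3 and 23.8 in the Meis1-WT pools. Of these genes *Hbb-b1* read 6.58 and 7.95 in Meis1-KO and 6.33 and 4.48 in Meis1-WT, whereas *Hba-a1* and *Slc4a1* were higher on slide 1 in both genotypes. *Rhag* of that list met the criteria as higher in Meis1-KO, with a difference of 1.72. The 7 megakaryocyte genes had a sum of 37.0 in the second Meis1-WT pool against 10.2 to 12.1 on the other arrays, and *Pf4* read 1.88 and 2.95 in Meis1-KO and 2.65 and 4.88 in Meis1-WT. *Vwf* and *Gp1ba* were highest in the first Meis1-KO pool and *Gp5* in the second. *Itga2b* of that list differed by -1.65 with a limma adjusted p of 0.983, both Meis1-KO pools being below both Meis1-WT pools. For 10 B lineage genes the sum was between 7.86 and 19.3, with *Cd22*, *Igll1* and *Pax5* not well above background on any array, and for 12 T and NK genes between 7.33 and 10.5, with *Cd3e*, *Cd3g* and *Ncr1* not well above background on any. The part of mature cells in the members' values was not tested.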

How the data were processed

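RNA of LSK cells, 10 ng from each of 4 pools, was amplified and, after labeling with Cy3, put on 1-color Agilent arrays of 60-base probes. The authors deposited the spot intensity written for each array by Feature Extraction (9.5.3.1 in the file headers, 9.1 in the submitters' processing notes), which removes background and spatial trend array by array, and a value table of these intensities in rounded form that does not scale arrays to each other. Spots too dim to measure carry a surrogate value (25.2% to 33.2% of spots per array), and no spot was saturated. Groups and replicate numbers come from the sample labels, and pool sizes from the microarray methods.

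From these intensities, spots that were controls or outliers were dropped, replicate spots averaged per probe, log2 taken and each array's 75th percentile subtracted. The comparison of genotypes used limma 3.58.1 (lmFit, then eBayes) under R 4.3.3, over the 22007 probes well above background in both pools of one genotype or the other, with Benjamini-Hochberg adjustment over all of them. The study's criteria were a p under 0.01 before adjustment together with a change of over 2-fold. Nothing in the labels says that the spread between pools holds more than these 2 pools per genotype. The t-test takes its p-values from that spread alone, while limma also draws on the spread over all tested probes. An exact permutation test of 2 against 2 cannot go below 0.333. Precision is limited by the number of arrays and by how far signals exceed background.

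Replicate number, slide and scan number coincide in the file headers, so the slide is a shared batch of both genotypes. Over the tested probes, arrays with the same number deviated together from the genotype means (r = 0.266), and the fit with the slide as a block is given where it changes a call. The alternatives were median scaling, quantile normalization, no scaling, normexp with an offset of 50, the authors' value table, dim probes kept, only probes well above background on all 4 arrays, no removal of outlier spots, the slide block, limma with an intensity trend, the methods' t-test, the omission of each array in turn and the mean of a gene's tested probes.

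The members, the pathway and marker lists and the tests were chosen with earlier results of these data known. Values on every array are given for members that meet the criteria with or without the block, differ by more than 2-fold in one direction on both slides, or have the lowest or highest difference of their role. Of the other pathway genes those that meet the criteria are named, and *Ly6a* and the marker genes were named beside them after their values were seen. The search for GAS was also added after the data had been seen. Gene names are those of the array's design. Of the 70 member probes 64 had an accession in a GRCm38.p6 RefSeq gene table, and the 2 probes of *Trim30* are *Trim30a* there. Promoter sequences are RefSeq's, on GRCm38.p6. Probe positions are those of the array annotation on mm9, and exons and untranslated regions were not analysed here. Some single genes are not reported here. The limma fit was tested on simulated data.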

Additional observations from a re-analysis of the deposited data

How the results depend on the processing

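No member met the criteria under the other scalings, normexp, the authors' value table, either filter, the methods' t-test, the intensity trend or the mean of a gene's probes. With the replicate block (the slide) 1 member met them as lower (*Cxcl10*), as did 1 member probe and 1 other pathway gene (*Irf4*). With no filter on dim probes 1 other pathway gene (*Irf4* again) met them as lower. With each array left out in turn, members met the criteria in 0 to 7 cases as lower and 0 to 1 as higher, other pathway genes in 0 to 8 as lower and 0 to 1 as higher, and member probes in 0 to 11, and all the highest counts came without the first Meis1-KO pool. Without the second Meis1-WT pool 1 other pathway gene, *Irf4*, was lower. The median difference of the members was -0.54 with no scaling, where the median over all tested probes moved from 0.08 to -0.30, and 0.12 with normexp. The cause of these changes was not tested beyond their construction. Fits on 3 arrays take the spread of the lone array from the genotype that kept both, so no conclusion is drawn from their counts. Without the first Meis1-KO pool *Cxcl10*, *Ifit3* and *Oas2* rest on a Meis1-KO value that was not well above background. Of the 41 differences, 19 changed sign without the second Meis1-KO pool, 9 with no scaling, 7 with normexp, and 0 with the authors' value table or outlier spots kept. The sign held under every alternative in which they were tested for 10 of the 41, 7 below 0 (*Cxcl10*, *Ifnar1*, *Iigp1*, *Isg20*, *Oasl2*, *Parp14* and *Zbp1*) and 3 above (*Irf8*, *Irgm1* and *Socs1*), with *Cxcl10* from -3.70 to -0.21. The same share over all tested genes was not analysed here. *Parp14*, *Iigp1* and *Socs1* came as near 0 as -0.04, -0.07 and 0.07, and *Socs1* went in opposite directions on the 2 slides. *Mx1*, *Mx2*, *Tlr3* and *Stat2* were too dim for a comparison.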
